A study of Mus musculus with 2 samples.

Results

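Monocyte and macrophage marker genes were followed in mouse mucosal mast cell cultures between day 4 and day 20. The set held 10 genes chosen by symbol: Lyz2, Apoe, Trem2, Spp1, Mmp14, Ccr2, Marco, Csf1r, Cd68 and Msr1. A gene was found by the accession or the symbol that the array files give for a probe. All 10 had a probe on both arrays, 1 spot each, and all 10 passed the filter on dim signals. They belong to 18061 genes tested, out of 20410 gene names with a value on both arrays. The study compared RNA of cells at day 20 and at day 4 of culture, and both days were grown with IL-3, IL-9, SCF and TGF-betaI. Each of 2 Agilent arrays held both days side by side: array 1 had day 20 in Cy5 and day 4 in Cy3, and array 2 had the dyes the other way round. RNA of 3 samples was pooled for each labelling, with other pools on array 2 than on array 1, so every ratio had n = 2. The labels name neither the strain nor the cells that were put into culture.

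Monocytes leave the bone marrow as circulating cells, enter tissues with the help of the chemokine receptor CCR2, and can mature there into macrophages under CSF1, the ligand of CSF1R. Macrophages are known for taking up debris and lipid. They do so with scavenger receptors such as MSR1 and MARCO, break the cargo down in lysosomes, which carry CD68, and secrete products such as lysozyme, apolipoprotein E and osteopontin. Mast cells arise from the same myeloid branch of blood formation but depend on stem cell factor and its receptor KIT.

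A list of 12 mast cell genes, chosen with earlier results of these data known, was read for change between the days. Such change does not identify the cells at either day. Of the 10 tested genes on the list 9 were called higher at day 20 and 1, Hdc, lower. Kit and Cpa3 had a probe but no tested value. Of all genes tested 7.85% were called higher and 9.3% lower. On array 1, 93.1% of the 21318 gene spots exceeded background clearly by the scanner software's mark at day 20 and 96.2% at day 4, and on array 2 the shares were 90.5% at day 20 and 80.0% at day 4. Across the tested genes the log2 ratios of both arrays correlated with Pearson's r at 0.774 and Spearman's rho at 0.473; these are values across genes, which are not independent replicates.

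Of the 10 marker genes 8 were lower and 2 were higher at day 20 in limma's test (adjusted p below 0.05). Over all genes tested the same rule called 9.3% lower and 7.85% higher. The markers were chosen with earlier results of these data known, so the comparison with all genes describes them and does not test the set. The lower genes were Lyz2, Spp1, Apoe, Mmp14, Trem2, Cd68, Csf1r and Msr1, and the higher ones were Ccr2 and Marco. The median log2 ratio of the 10 genes was -1.14, with -1.18 on array 1 and -1.19 on array 2, against -0.01 over all genes tested. After normalisation all 10 had the same sign on both arrays. Before it, the background-subtracted signals on array 2 gave log2 ratios above 0 for the dim genes Csf1r (0.05), Cd68 (0.39) and Msr1 (1.08). The negative control spots on that array had a median net signal of 68.0 at day 20 and 11.5 at day 4. Which step of the processing turned the sign of these genes was not tested. A total of 5 were at least 2-fold lower on both arrays, a class that held 0.819% of the genes tested, and 0 were at least 2-fold higher on both, a class that held 1.06%. Ratios are relative to genes of like brightness on the same array, and in RNA of whole cultures fewer cells of a type and less RNA per cell cannot be told apart.

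**Figure D1:**
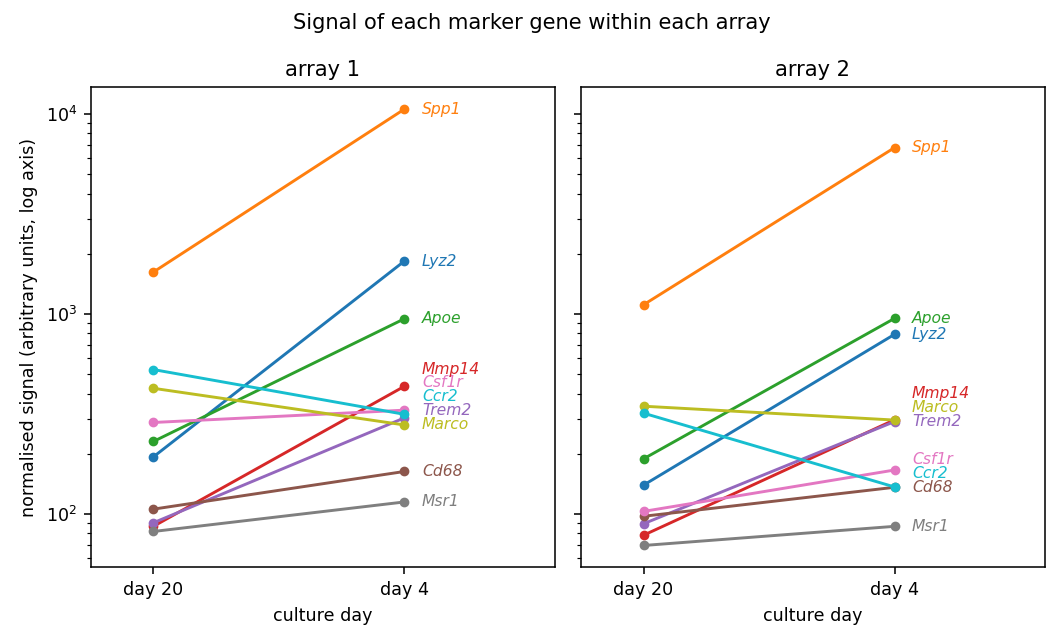
Normalised signal of each of the 10 marker genes (log axis, arbitrary units) at day 20 and day 4 within array 1 (left panel) and array 2 (right panel). Lines join the values of a gene on 1 array. They run up towards day 4 for 8 genes and down for Ccr2 and Marco on both arrays, while heights of different genes come from different probes and cannot be compared.

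Lyz2, Spp1 and Apoe are secreted products. Lyz2 encodes lysozyme M, an enzyme of macrophages and neutrophils that cuts bacterial cell walls. The gene lies at chr10:117277541-117282272 in GRCm38.p6. Its normalised signal, in arbitrary units that include the offset of 50, was 193 at day 20 and 1840.5 at day 4 on array 1, and 139 at day 20 and 791 at day 4 on array 2. Day 20 was far below day 4 on both arrays. The log2 ratios were -3.25 and -2.51, with a mean of -2.88 ± 0.53 (SD, n = 2), or 7.36-fold lower at day 20 with a limma adjusted p of 3.29e-08. The net signal of Lyz2 at day 20 on array 2 was 2.28 times the median of the negative control spots. Its size depended on the background treatment, with a mean of -3.34 with an offset of 0 and -3.40 with the scanner software's ratios. Lyz2 held rank 6 among the lowest ratios of the 18061 genes, and its SD was the widest among the 10 markers.

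Spp1 (chr5:104435111-104441053) encodes osteopontin, a secreted phosphoprotein that binds integrins and CD44 and that activated macrophages make in quantity. The signal was 1622 at day 20 and 10596 at day 4 on array 1, and 1112 at day 20 and 6794 at day 4 on array 2. The arrays gave nearly the same log2 ratio, -2.71 and -2.61. The mean was -2.66 ± 0.07 (SD, n = 2), 6.32-fold lower at day 20 with a limma adjusted p of 4.85e-09. At day 20 its net signal was still 117 and 17.1 times the median of the negative control spots on arrays 1 and 2, so the fall left a clear signal.

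Apoe (chr7:19696244-19701310) encodes apolipoprotein E, which macrophages secrete with cholesterol and which is also a ligand of TREM2. The normalised signals were 230 at day 20 and 947 at day 4 on array 1, and 188 at day 20 and 950.3 at day 4 on array 2. Log2 ratios of -2.04 and -2.33 gave a mean of -2.19 ± 0.21 (SD, n = 2) and a limma adjusted p of 3.85e-08, a 4.55-fold lower value at day 20. The net signal of Apoe at day 20 on array 2 was 3.06 times the median of the negative control spots. In the main setting Lyz2 and Spp1 did not differ beyond their error. The log2 ratio of Spp1 minus that of Lyz2 was 0.22, with a 95% interval from -0.19 to 0.63. In that setting the ratio of Apoe was higher than that of Spp1 by 0.47 on the log2 scale, with an interval from 0.12 to 0.82. With an offset of 0 the means were -3.34 for Lyz2, -2.665 for Spp1 and -2.496 for Apoe. With the software's ratios they were -3.396, -2.688 and -2.545, and with median centring in place of loess -2.891, -2.838 and -2.192.

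Mmp14 and Trem2 are cell surface proteins. Mmp14 (chr14:54431598-54442456) encodes a membrane-bound metalloproteinase that cuts collagen and activates the secreted protease MMP2. Mmp14 had a normalised signal of 86.7 at day 20 and 435 at day 4 on array 1, and 78.2 at day 20 and 295 at day 4 on array 2. The log2 ratios were -2.33 and -1.92, with a mean of -2.12 ± 0.29 (SD, n = 2) and a limma adjusted p of 8.21e-08. The gene was 4.35-fold lower at day 20. In the main setting its ratio did not differ beyond its error from that of Apoe (difference 0.06 on the log2 scale, 95% interval from -0.31 to 0.43). With an offset of 0 the mean log2 ratios were -3.26 for Mmp14 and -2.496 for Apoe. Trem2 (chr17:48346401-48352276) encodes a lipid-sensing receptor of macrophages and microglia that signals through the adaptor TYROBP, also called DAP12. On array 1 its normalised signal was 90.3 at day 20 and 302 at day 4, and on array 2 it was 89.2 at day 20 and 289 at day 4. The ratios of -1.74 and -1.70 were close to each other, and the mean was -1.72 ± 0.03 (SD, n = 2), or 3.30-fold lower at day 20 with a limma adjusted p of 2.22e-07.

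At day 20 the median net signal of the negative control spots was 11.5 on array 1 (Cy5) and 68.0 on array 2 (Cy3). Multiples of it thus have a different base on each array. Mmp14 and Trem2 at day 20 lay near the floor on array 2. There the net signal of Mmp14 at day 20 was 1.29 times the median of 162 negative control spots and above 93.2% of them, and that of Trem2 was 1.47 times the median and above 98.1%. On array 1 the net signals were 3.01 times the median for Mmp14 and 3.31 times for Trem2, above 100% of the negative control spots. The size of these falls therefore depended on how background was treated: with an offset of 0 in the normexp correction the mean log2 ratios were -3.26 for Mmp14 and -2.64 for Trem2, and with the ratios of the scanner software -3.47 and -2.83. Both genes were called lower in these settings as well, and with the software's ratios Mmp14 lay below Lyz2, which was at -3.40.

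Cd68, Csf1r and Msr1 had smaller ratios. Cd68 (chr11:69664213-69666170) encodes a heavily glycosylated membrane protein of late endosomes and lysosomes, a common histological marker of macrophages. Its normalised signal was 106 at day 20 and 163 at day 4 on array 1, and 97.3 at day 20 and 136 at day 4 on array 2. The log2 ratios of -0.63 and -0.48 gave a mean of -0.55 ± 0.10 (SD, n = 2), 1.47-fold lower at day 20 with a limma adjusted p of 0.00308. Csf1r encodes the receptor tyrosine kinase for CSF1 and IL-34, on which most macrophages depend. Csf1r had a normalised signal of 287 at day 20 and 330.2 at day 4 on array 1, and 103 at day 20 and 166 at day 4 on array 2. Both arrays were lower but differed in size, with -0.20 and -0.69, a mean of -0.45 ± 0.34 (SD, n = 2) and a limma adjusted p of 0.0285. Msr1 (chr8:39543232-39642750) encodes the class A scavenger receptor that binds modified lipoproteins and bacterial surfaces. Msr1 had a normalised signal of 81.6 at day 20 and 115 at day 4 on array 1, and 69.5 at day 20 and 86.6 at day 4 on array 2. The ratios of -0.49 and -0.32 had a mean of -0.40 ± 0.12 (SD, n = 2) with a limma adjusted p of 0.0239, a 1.32-fold lower value at day 20.

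These 3 genes could not be ordered among themselves. Csf1r minus Cd68 was 0.11 on the log2 scale (95% interval from -0.26 to 0.48), and Msr1 minus Csf1r was 0.04 (from -0.33 to 0.41). Cd68 and Trem2 were clearly apart, with a difference of 1.17 and an interval from 0.82 to 1.51. Msr1 was the dimmest marker: at day 20 on array 2 its net signal was 1.15 times the negative control median and above 88.3% of those spots. The net signals of Cd68 and Csf1r there were 1.59 and 1.68 times that median, each above 99.4% of the spots. The scanner software's own log2 ratio of Msr1 on array 2 was -0.79 with an error of 0.94, against -1.09 with an error of 0.22 on array 1. With an offset of 0, Cd68 was at -0.95 and Msr1 at -0.97. With median centring in place of loess, Cd68, Csf1r and Msr1 did not pass (adjusted p of 0.0534, 0.157 and 0.124), and Csf1r missed the threshold also with the software's ratios (adjusted p of 0.191).

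Ccr2 and Marco were higher at day 20. Ccr2 (chr9:124101918-124109140) encodes the receptor for CCL2 that draws monocytes out of the bone marrow and into tissue. Ccr2 had a normalised signal of 527 at day 20 and 315 at day 4 on array 1, and 319 at day 20 and 136 at day 4 on array 2. The log2 ratios were 0.74 and 1.23, with a mean of 0.99 ± 0.34 (SD, n = 2), or 1.98-fold higher at day 20 with a limma adjusted p of 9.33e-05. Marco (chr1:120474538-120505024) encodes a class A scavenger receptor, like Msr1, that is best known on macrophages of the lung, spleen and lymph node. Its normalised signal was 425 at day 20 and 278 at day 4 on array 1, and 346 at day 20 and 295 at day 4 on array 2. The ratios of 0.61 and 0.23 gave a mean of 0.42 ± 0.27 (SD, n = 2) and a limma adjusted p of 0.0297, a 1.34-fold higher value at day 20. The call of Marco was lost with an offset of 0 (adjusted p of 0.138), with the software's ratios (0.253) and with median centring (0.124). The scavenger receptors Msr1 and Marco thus had opposite directions, with a difference of 0.82 on the log2 scale and a 95% interval from 0.46 to 1.19, and Ccr2 exceeded Marco by 0.57 (from 0.18 to 0.95).

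**Figure D2:**
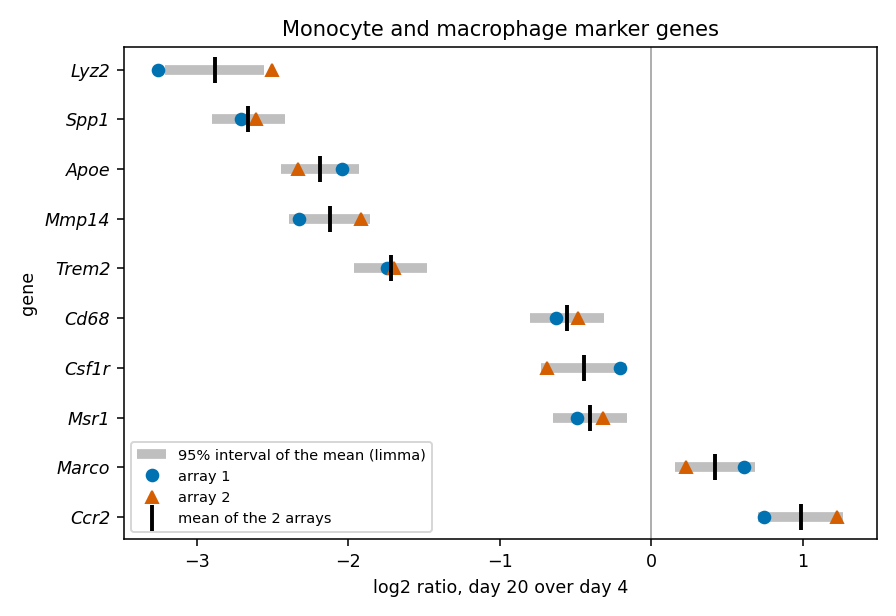
Log2 ratio of day 20 over day 4 for each marker gene on array 1 (circles) and array 2 (triangles), with the mean (black bars) and limma's 95% interval of the mean (grey). The 5 genes from Lyz2 to Trem2 lie below -1 on both arrays, Cd68, Csf1r and Msr1 lie between -1 and 0, and Marco and Ccr2 lie above 0.

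Ordered by ratio, the 10 genes formed 9 neighbouring pairs, and in 5 of these the 95% interval of the difference, not adjusted over the pairs, left out 0. This count rests on intervals that take the errors of both genes as independent, though both lie on the same arrays. The widest step lay between Trem2 and Cd68. Secreted proteins and the protease Mmp14 stood at the low end together with Trem2, the other receptors with Cd68 stood nearer to 0, and the chemokine receptor stood at the high end. This order and the count of 5 belong to the main setting. Mmp14 was the lowest with the software's ratios. With an offset of 0, Trem2 at -2.64 lay below Apoe at -2.496, and Msr1 at -0.97 lay next to Cd68 at -0.95.

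**Figure D3:**
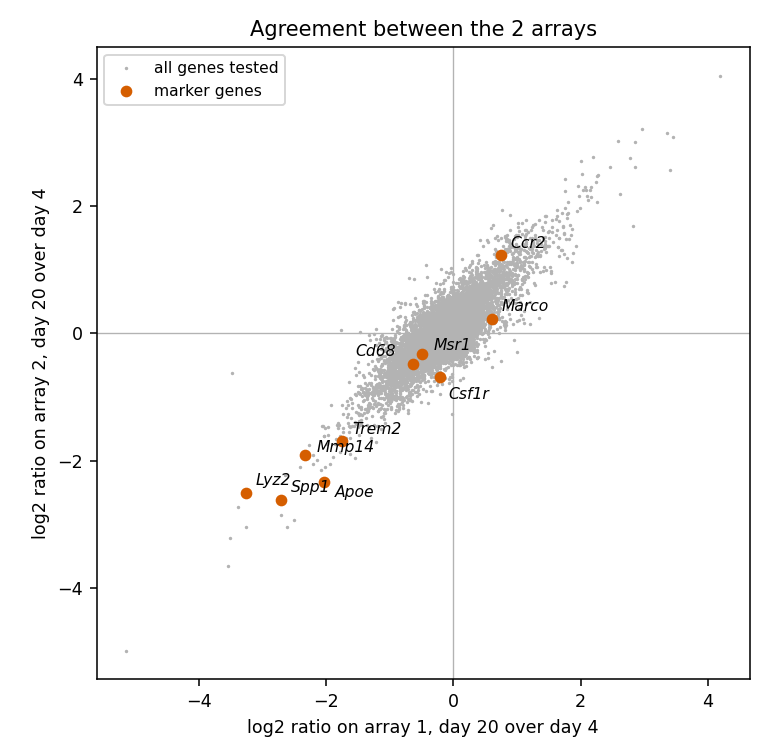
Log2 ratio of day 20 over day 4 on array 1 (horizontal axis) against array 2 (vertical axis) for all 18061 genes tested (grey) and the 10 marker genes (orange). Lyz2, Spp1, Apoe, Mmp14 and Trem2 sit in the lower left arm of the cloud, while Csf1r, Cd68, Msr1 and Marco sit in or at the edge of its dense centre.

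Promoter sequences are shown for Lyz2, Spp1 and Trem2 as examples of genes called lower under every setting with a test, and for the larger rise (Ccr2). Apoe and Mmp14 were also called lower under every such setting, and their windows were scanned but are not shown. They run from 250 bases before to 50 bases after the start site in RefSeq's annotation of GRCm38.p6, on the strand of the gene. Capitals mark the core letters GAGGAA, or TTCCTC on the other strand, of the motif of PU.1, an ETS factor of myeloid cells encoded by Spi1. The windows are chr10:117282223-117282522 (minus strand) for Lyz2, chr5:104434861-104435160 (plus strand) for the upstream of 2 windows of Spp1, chr17:48346151-48346450 (plus strand) for Trem2 and chr9:124101933-124102232 (plus strand) for Ccr2. The Ccr2 window lies wholly inside the gene as annotated, so no sequence upstream of that gene was scanned.
Lyz2: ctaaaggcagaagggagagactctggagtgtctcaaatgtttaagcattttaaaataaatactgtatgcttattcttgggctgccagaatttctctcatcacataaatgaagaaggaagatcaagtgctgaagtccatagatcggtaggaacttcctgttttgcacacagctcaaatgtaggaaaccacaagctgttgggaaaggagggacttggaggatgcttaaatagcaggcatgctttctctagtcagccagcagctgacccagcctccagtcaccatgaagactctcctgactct
Spp1: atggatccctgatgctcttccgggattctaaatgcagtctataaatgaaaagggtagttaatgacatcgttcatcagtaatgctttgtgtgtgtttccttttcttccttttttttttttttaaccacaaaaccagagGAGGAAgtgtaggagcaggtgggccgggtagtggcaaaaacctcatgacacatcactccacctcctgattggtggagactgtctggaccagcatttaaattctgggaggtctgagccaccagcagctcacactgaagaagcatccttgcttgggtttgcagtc
Trem2: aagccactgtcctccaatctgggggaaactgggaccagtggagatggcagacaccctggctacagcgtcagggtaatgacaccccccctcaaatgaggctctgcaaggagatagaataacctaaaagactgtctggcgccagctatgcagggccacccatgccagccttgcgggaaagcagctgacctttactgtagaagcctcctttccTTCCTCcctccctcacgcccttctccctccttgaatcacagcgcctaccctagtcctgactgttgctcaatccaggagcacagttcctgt
Ccr2: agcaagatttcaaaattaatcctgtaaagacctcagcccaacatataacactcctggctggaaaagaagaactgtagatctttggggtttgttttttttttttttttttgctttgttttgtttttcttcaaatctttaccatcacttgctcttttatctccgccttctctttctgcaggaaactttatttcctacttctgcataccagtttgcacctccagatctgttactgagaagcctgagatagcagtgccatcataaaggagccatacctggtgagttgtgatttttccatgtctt
The match lies at position -113 in Spp1 and at position -40 in Trem2, counted to its first letter from the start site, and the windows of Lyz2 and Ccr2 hold none. Of the 10 markers 8 had a window in the table, 11 windows in all, and 6 of the 11 windows, from 5 genes, held GAGGAA on either strand, as did 28.3% of 32851 promoter windows of all genes. Windows of 1 gene can overlap. The AP-1 letters TGANTCA were in 2 of the 11 windows (Cd68 and Trem2) and in 7.81% of all windows. The C/EBP letters TTGCNNAA were in 3 (Cd68, Spp1 and Trem2) and in 10.8% of all windows. The E-box CATGTG was in 1 (Marco, where matches on both strands overlap) and in 14.2%, and the E-box CACGTG was in 0 and in 7.15%. A match describes letters only, and these data hold no measurement of binding.

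Genes of related function were counted by list, beside 7.85% called higher and 9.3% called lower over all genes tested. Among 14 genes of the CSF1 and GM-CSF receptor axis and of monocyte development, 10 were tested, of which 2 were higher and 4 lower, with a median log2 ratio of -0.22. Leaving out the marker Csf1r, 9 genes remained, of which 2 were higher and 3 lower. Csf2ra, the ligand-binding chain of the GM-CSF receptor, was lower at -1.08 ± 0.06 (SD, n = 2), while Csf2rb2, a beta chain that in mouse serves IL-3, was higher at 1.23 ± 0.33. Klf4, a transcription factor of monocyte development, was at -0.96 ± 0.01 and Cebpb, a factor of myeloid gene expression, at -0.58 ± 0.23, both lower. Nr4a1, a nuclear receptor that patrolling monocytes need, was higher at 0.45 ± 0.01. Spi1, which encodes PU.1 and is named here for its motif, chosen after its values were seen, had normalised signals of 623 at day 20 and 659 at day 4 on array 1, and 639.6 at day 20 and 693 at day 4 on array 2. Its mean log2 ratio of -0.10 ± 0.03 did not pass (limma adjusted p of 0.822). Csf1, the ligand of CSF1R, had a ratio of 0.28 ± 0.03 and did not pass either. The calls of Cebpb and Nr4a1 were lost with an offset of 0, with the software's ratios and with median centring, and Klf4 was at -2.01 with an offset of 0.

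Trem2 and its adaptor differed in direction. Tyrobp was higher at day 20, with log2 ratios of 1.36 and 1.23 and a mean of 1.29 ± 0.09 (SD, n = 2, limma adjusted p of 2.99e-06). In the list for TREM2, ApoE and lipid handling 23 of 24 genes were tested, of which 5 were higher and 7 lower, with a median of -0.07. Leaving out Trem2 and Apoe, 21 genes remained, of which 5 were higher and 5 lower. Gpnmb, a glycoprotein of lipid-laden macrophages, was at -1.53 ± 0.56 and Lpl, the lipoprotein lipase, at -1.11 ± 0.10, both lower. Soat1, which esterifies cholesterol for storage, was higher at 1.05 ± 0.03. Lrp1, a receptor that takes up ApoE particles, had a ratio of -0.05 ± 0.04 and did not pass. Gpnmb was at -2.65 and Lpl at -2.59 with the software's ratios.

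Of 24 scavenger and phagocytic receptors 17 were tested, of which 3 were higher and 6 lower, with a median of -0.13. Leaving out Marco and Msr1, 15 genes remained, of which 2 were higher and 5 lower. Clec7a, the beta-glucan receptor dectin-1, was at -1.39 ± 0.10 (SD, n = 2), Scarb1, a receptor for high-density lipoprotein, at -0.78 ± 0.05, Mrc1, the mannose receptor, at -0.59 ± 0.30, and Cd14, the co-receptor for endotoxin, at -0.59 ± 0.01, all lower. The Fc gamma receptors Fcgr3 at 1.24 ± 0.19 and Fcgr2b at 0.85 ± 0.00, which macrophages share with mast cells, were higher. Clec7a was at -2.01 and Mrc1 at -1.70 with the software's ratios, where Cd14 was no longer called, and Mrc1 was not called with median centring.

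Among osteopontin and its receptors 7 of 9 genes were tested, of which 0 were higher and 2 lower, with a median of -0.07. Besides Spp1 itself the lower gene was Itgb5, the integrin beta 5 chain, at -1.29 ± 0.14 (SD, n = 2). Its partner Itgav, at -0.07 ± 0.01, and Itgb3, at 0.06 ± 0.32, did not pass. Of 24 metalloproteinases, ADAMs and TIMPs 17 were tested, of which 0 were higher and 2 lower, with a median of -0.06. The genes lower were Mmp14 and Mmp12, the elastase of macrophages, at -0.51 ± 0.05. Mmp2 at -0.07 ± 0.06, the proenzyme that MMP14 activates, and the inhibitors Timp2 at -0.10 ± 0.05 and Timp3 at -0.27 ± 0.03 did not pass. Itgb5 was at -2.12 and Mmp12 at -1.43 with the software's ratios. Mmp12 was not called with median centring, and Timp3 was called lower, at -0.96, with an offset of 0.

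In the group of CCR2, its ligands and related receptors 7 of 9 genes were tested, of which 2 were higher and 0 lower, with a median of 0.06. Leaving out Ccr2, 6 genes remained, of which 1 were higher and 0 lower. Ccl2, the main ligand of CCR2, was higher at 0.75 ± 0.18 (SD, n = 2, limma adjusted p of 3.73e-04), though not with the software's ratios (adjusted p of 0.0646). Ccl7, another ligand, had a ratio of -0.28 ± 0.04 and did not pass.

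Lysosomal and secreted macrophage proteins moved both ways. Of 30 genes 23 were tested, of which 6 were higher and 9 lower, with a median of -0.11. Leaving out Lyz2 and Cd68, 21 genes remained, of which 6 were higher and 7 lower. Beside Lyz2, the cathepsin genes Ctss at -3.60 ± 0.08 (SD, n = 2) and Ctsl at -2.26 ± 0.22 were lower. Ncf4, a cytosolic subunit of the phagocyte oxidase, was higher at 1.30 ± 0.03, Cd63, a membrane protein of lysosomes and mast cell granules, at 1.16 ± 0.50, and Grn, which encodes progranulin, at 1.12 ± 0.35.  Cd63 did not pass with median centring.

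**Figure D4:**
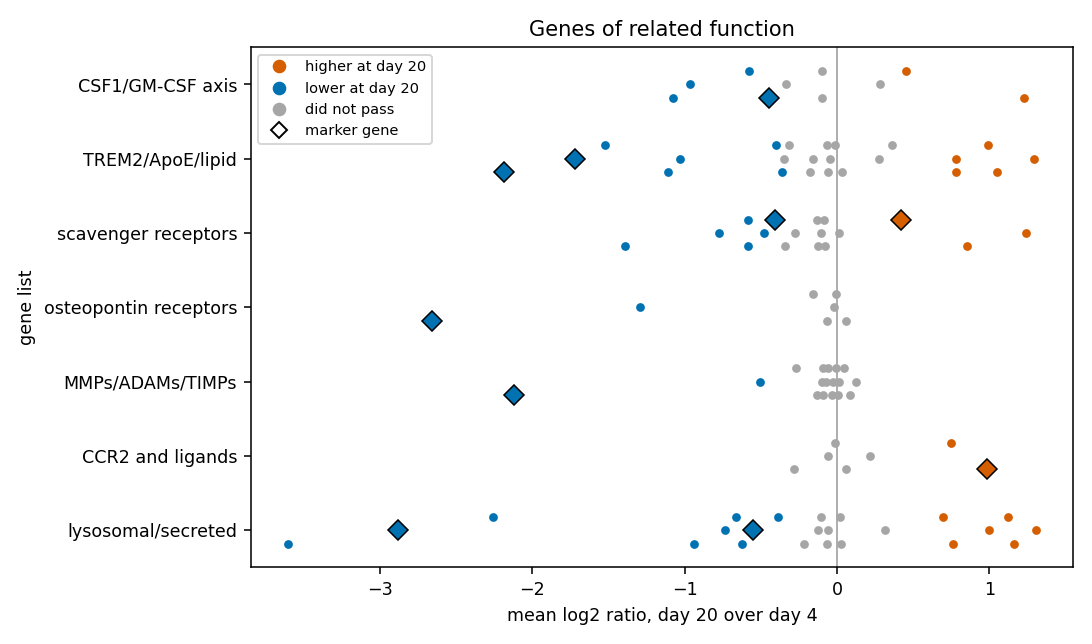
Mean log2 ratio of day 20 over day 4 (horizontal axis) for the tested genes of 7 lists of related function, coloured by whether they were higher, lower or did not pass with limma, with the 10 marker genes as diamonds. In the lists of the osteopontin receptors and of the metalloproteinases the marker gene lies far to the left of most of its list.

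Markers of other cells moved as well, counted beside 7.85% called higher and 9.3% called lower over all genes tested. Of 13 neutrophil genes 11 were tested, of which 0 were higher and 7 lower, with a median of -0.88. S100a9 and S100a8, the calprotectin subunits, were at -5.06 ± 0.11 and -3.06 ± 0.46 (SD, n = 2), and Mpo, the myeloperoxidase, was at -3.15 ± 0.15, each further below 0 than any of the 10 markers in the main setting. The summed normalised signal of the neutrophil list was 9035 to 11089 at day 20, against 14003 to 20433 at day 4, but Ctsg, which was not called (0.06 ± 0.20), made up most of it at day 20. Without Ctsg the sum was 1011 to 1187 at day 20, against 7033 to 9961 at day 4. Lyz2 is expressed by neutrophils too. Camp, a neutrophil granule gene, was well above background on neither array at day 20.

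Summed over the 10 monocyte and macrophage markers the signal was 2541 to 3648 at day 20, against 9939 to 15321 at day 4, and without Spp1, the brightest, 1429 to 2026 at day 20, against 3145 to 4725 at day 4. Such sums weigh bright probes most. Of 9 tested dendritic cell and MHC class II genes 0 were higher and 6 lower (median -0.48), with a summed signal of 1221 to 1530 at day 20, against 1537 to 1994 at day 4. The basophil and eosinophil list had 0 of 4 higher and 3 lower (median -0.43), with a summed signal of 3793 to 5342 at day 20, against 24126 to 29549 at day 4. Without Mcpt8, a basophil protease, that sum was 550.1 to 1000.1 at day 20, against 637 to 1119 at day 4. The erythroid list had 0 of 7 higher and 6 lower (median -1.05), the lymphoid list 1 of 4 higher and 1 lower (median 0.02), and the stromal list 1 of 4 higher and 0 lower (median -0.24). The 10 tested mast cell genes had a median of 1.40. Cma1 and Tpsab1 were saturated at day 20 on both arrays and Mcpt1 on 1, so the ratios of these genes and the list's summed signal of 263700 to 337340 at day 20, against 67840 to 71760 at day 4, are lower bounds of the difference. The part of these other cells in the marker ratios was not tested.

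**Figure D5:**
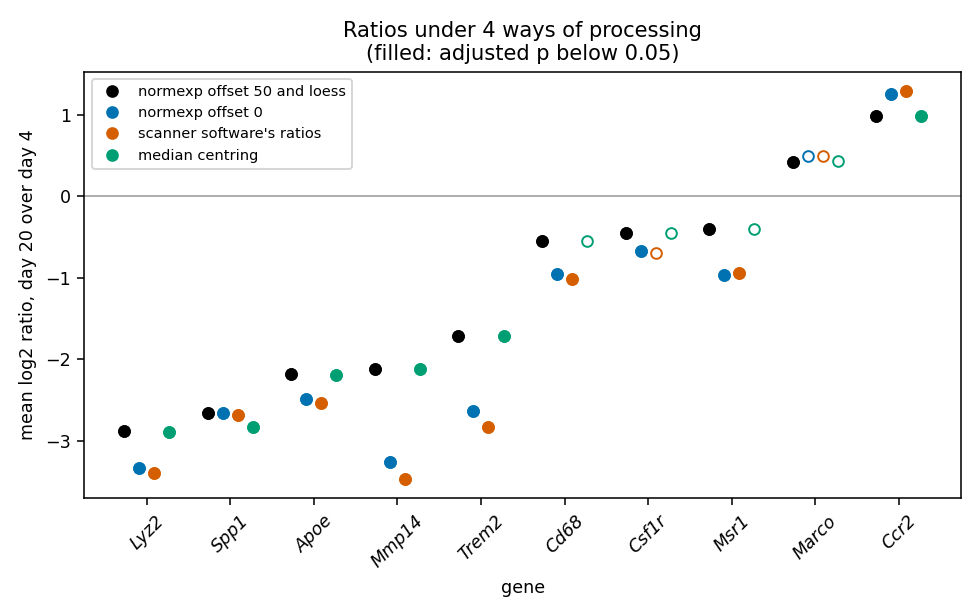
Mean log2 ratio of day 20 over day 4 for each marker gene under 4 ways of processing the scanner signals, with filled points where limma's adjusted p was below 0.05. Lyz2, Spp1, Apoe, Mmp14, Trem2 and Ccr2 are filled in all 4, and Mmp14 and Trem2 spread most between them.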

How the data were processed

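Day 20 and day 4 RNA was hybridised on 2 Agilent 2-colour arrays, scanned by the authors with Agilent Feature Extraction 7.5 per the submitters' processing notes. The deposited files hold spot and background intensity values without normalization, processed intensity values, and log10 ratios of Cy5 over Cy3 given in the dyes' direction on each array, which the deposited value table repeats in all 22393 rows within 1e-06. In the deposited file of array 1 the background columns held entries other than numbers, namely month names, in 313 cells for Cy3 and 324 for Cy5, which were read back as numbers.

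With R 4.3.3 and limma 3.58.1, the median background was removed by normexp (offset 50), each array was normalized by loess, outlier-marked spots were left out, and the brightest probe was kept for each gene. Genes well above background in both day 20 or both day 4 channels were tested with lmFit and eBayes on log2 ratios against 0, two-sided, with Benjamini-Hochberg adjustment over all genes tested and a threshold of 0.05. With 2 arrays there was 1 residual degree of freedom per gene, so the variance of a gene rests mainly on the prior that limma estimated over all genes (12.2 degrees of freedom, SD 0.163). A dye effect of a single gene cancels in the mean of both arrays. Day and array are not confounded, since each array holds both days. The number of arrays limits the precision. The fit was also run on simulated data with normal noise of the fitted variances. That simulation held no dye, intensity or background effect, so it cannot speak to these.

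Cd68 and Csf1r were named by the symbol in the files' descriptions, Trem2 by an older symbol there (Trem2a), and the others by accession through RefSeq's table for GRCm38.p6. The files describe Lyz2 as Lyzs and Ccr2 as Cmkbr2. The members and the lists were chosen with earlier results of these data known. Beyond the members, the text names up to 6 genes of each list with the largest ratios past the threshold, and direct partners of members. Alternatives were another offset, the software's ratios, median centring, other filters, marked spots kept, another prior, averaged probes and each array left out.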

Additional observations from a re-analysis of the deposited data

How the results depend on the processing

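Lyz2, Spp1, Apoe, Mmp14, Trem2 and Ccr2 kept their direction and their call under all 8 alternatives that allow a test. Marco, at 0.42, was not called with an offset of 0 (0.50), the software's ratios (0.49) or median centring (0.43). Csf1r did not pass with the software's ratios (-0.69) or median centring (-0.45), and with median centring Cd68 (-0.55) and Msr1 (-0.40) did not pass. Members called higher were 1 instead of 2 under an offset of 0, the software's ratios and median centring, and members called lower were 5 instead of 8 under median centring. Over all genes, 1418 were called higher and 1680 lower, against 613 and 630 with the software's ratios and 559 and 782 with median centring. The cause of these changes was not tested. List medians, in the order of the lists in the text, were -0.42, -0.23, -0.54, -0.22, -0.13, 0.18 and -0.13 with an offset of 0, and -0.37, -0.22, -0.63, -0.32, -0.12, 0.33 and -0.14 with the software's ratios. The lysosomal median was -0.13 with median centring and the CCR2 median -0.016 with no filter on dim probes.

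With either array alone there is no test. The ratios were then -3.25 to -2.51 for Lyz2 and -0.69 to -0.20 for Csf1r, and the list medians -0.27 to -0.15 (CSF1), -0.16 to -0.034 (TREM2), -0.30 to -0.17 (scavenger), -0.14 to -0.057 (osteopontin), -0.060 to -0.034 (metalloproteinases), -0.01 to 0.09 (CCR2) and -0.13 to -0.13 (lysosomal). Each member has 1 probe, so taking its probes singly gave nothing further. Each array holds both days, so the test of its ratios is already paired and no further block was fitted. Signal over background limits the sizes given for Lyz2, Apoe, Mmp14, Trem2, Cd68, Csf1r and Msr1.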

Other observations

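Other myeloid genes outside the lists were chosen after the files were opened, by name and not by value. Of 16 such genes 13 were tested, and limma called 1 higher, 4 lower and 8 not, beside 7.85% called higher and 9.3% called lower over all genes tested. Among relatives of Trem2, Trem1, a receptor of neutrophils and monocytes that amplifies inflammation, had a log2 ratio of -0.05 ± 0.13 (SD, n = 2) and Trem3 had -0.19 ± 0.04, and neither passed with limma. Clec4d, a C-type lectin receptor of myeloid cells, was lower at day 20 at -1.63 ± 0.27, with normalised signals of 144 at day 20 and 508 at day 4 on array 1, and 129.98 at day 20 and 352 at day 4 on array 2. Its relative Clec4n, dectin-2, was also lower at -1.10 ± 0.25, while Clec4e, which encodes Mincle, had a ratio of 0.15 ± 0.09 and did not pass. The toll-like receptors Tlr2 and Tlr4 had opposite directions, with Tlr2 lower at -1.55 ± 0.13 and Tlr4 higher at 0.87 ± 0.14. Pla2g7, a phospholipase of macrophages, was lower at -0.42 ± 0.27, while Folr2 (-0.02), Fcrls (0.12), Cd5l (-0.25), Vcan (-0.02) and Emilin2 (-0.01) did not pass.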
